A study of Mus musculus with 40 samples.

Results

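The 8 genes described here mark or drive the step from B cell to plasma cell, the antibody-secreting end stage of the B cell lineage. They were chosen by name, as Prdm1, Irf4, Ell2, Sdc1, Tnfrsf17, Jchain, Mzb1 and Slpi, and are 8 of the 21892 genes measured. Each was read by 1 probe, all 8 had a value on every array, and no filter on low values was applied. Spleen B cells of C57BL/6 mice aged 12 weeks, obtained by negative selection, were measured on 40 Agilent arrays with 2 dyes. The mice were 10 wild-type animals and 10 animals lacking Dock10, a guanine nucleotide exchange factor. WT_Pre and KO_Pre hold the cells before culture, from all 10 mice of a genotype. The remaining 4 groups have 5 samples each, from mice 6 to 10, after 18 h of culture: WT_Ctrl and KO_Ctrl had no addition, and WT_IL4 and KO_IL4 received 10 ng/ml of IL-4. Which part of Dock10 is deleted, in which cells, and whether the mice were littermates is not given in the sources used here.

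Plasma cell differentiation rests on a change of regulators. In a B cell, Pax5, Bcl6 and Bach2 hold the programme back, and once the repressor Blimp-1 (the product of Prdm1) and the factor IRF4 accumulate, B cell genes are shut off and the secretory apparatus, driven by Xbp1, is built up. Surface syndecan-1 and the receptor BCMA then mark the cells, and the J chain and endoplasmic reticulum proteins such as MZB1 assist antibody assembly. IL-4 is a T helper cell cytokine that signals through STAT6 and is known in B cells for survival, for raising CD23 and for switching to IgG1 and IgE.

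Every level below is a log2 ratio of a sample to 1 common reference. That reference is a pool of RNA from KO_Pre cells of mice 6 to 10, so levels cannot be compared between genes. A level of 0 did not mark the level of the KO_Pre arrays of these mice for every gene. Those arrays lay wholly above 0 for Prdm1 (0.26 to 0.60) and Ell2 (0.135 to 0.66). For the other genes described here their range included 0. The cause of this offset was not tested. Differences between groups are differences of these log2 ratios, with moderated standard errors (SE) from limma, and a gene is said to have risen or fallen only where the p-value adjusted over all 21892 genes was under 0.05. The comparisons after culture share 1 fit of 30 arrays of mice 6 to 10, so comparisons that have a group in common are not independent. Ranges of 2 groups without overlap were common over all genes. Culture with nothing gave them for 22.5% of all genes in wild-type cells and 29.3% in knockout cells. For IL-4 the shares were 25.6% and 9.22%, and between genotypes 10.4% without IL-4 and 17.9% with it. In RNA of whole samples, fewer cells of a type and less RNA per cell cannot be told apart.

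Dock10 itself differed by -0.54 between KO_Ctrl and WT_Ctrl (SE 0.17, adjusted p = 0.0295) and by -1.07 between KO_IL4 and WT_IL4 (SE 0.17, adjusted p = 0.000223), while the -0.38 before culture did not pass (adjusted p = 1, unadjusted p = 0.00119). The first of these was lost in 8 of 24 alternatives, among them the omission of WT_Ctrl 8 or 9 or KO_Ctrl 6 or 9 (-0.49 to -0.43). Whether the probes lie in the deleted part is not given, so the values check the labels only in part. Xist had log2 ratios of 4.74 to 5.92 in the 10 arrays before culture numbered 1 to 4 and 10, and at most 0.85 in the other 30. The arrays numbered 10 before and after culture therefore differ in sex-linked RNA, against their label as cells of 1 mouse, and culture results that change without them are given both ways. KO_Pre 10 is among the arrays with high Xist, although the pool is described as holding RNA of that mouse. A ratio of at least 4.74 is at odds with an equal part of its RNA in the pool. This conflict was not resolved. Wild-type mouse 6 stood apart after culture: the mean over 8 erythroid and platelet markers was -0.13 in WT_Ctrl 6 and at most -1.20 in the other WT_Ctrl arrays.

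**Figure D1:**
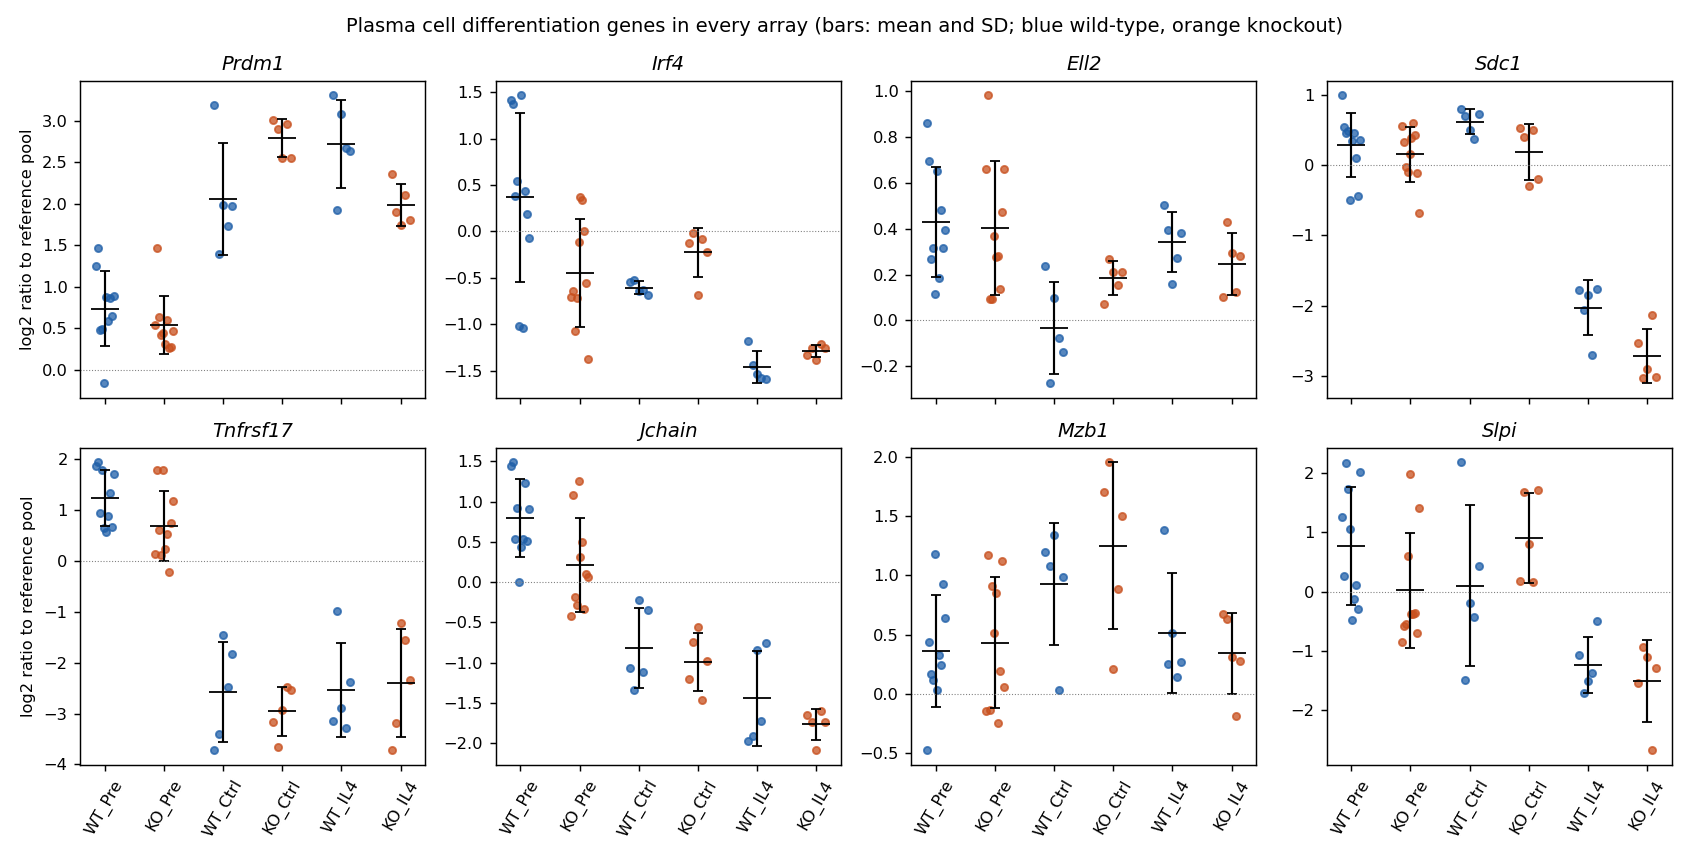
Log2 ratio to the reference pool (vertical axis) of the 8 genes in every array, by group (horizontal axis), with blue points for wild-type, orange points for knockout, and black bars for the group mean and SD (n = 10 before culture, n = 5 after). Prdm1 is higher in every cultured group than before culture on average, Tnfrsf17 and Jchain are lower, and Sdc1 is low only in the groups with IL-4.

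Before culture, none of the 8 genes passed the test between genotypes. Over all genes 0% were called higher and 0% lower, and 892 of 21892 had an unadjusted p under 0.05. The 2 members with an unadjusted p under 0.05 were Jchain and Irf4. Jchain, which encodes the chain that joins IgM and IgA into polymers, ranged from -0.00 to 1.49 in WT_Pre (median 0.72) and from -0.42 to 1.26 in KO_Pre (median 0.08). Irf4, a transcription factor needed for plasma cells and induced by B cell receptor signals, ranged from -1.04 to 1.46 in WT_Pre (median 0.41) and from -1.37 to 0.37 in KO_Pre (median -0.59). The knockout samples lay low within overlapping ranges for both genes. The difference was -0.59 for Jchain (SE 0.23, unadjusted p = 0.0185, adjusted p = 1) and -0.81 for Irf4 (SE 0.32, unadjusted p = 0.0211, adjusted p = 1). With the mouse number as a block, since residuals of same-numbered arrays correlated before culture, neither gene passed (adjusted p = 0.667 for Jchain and 0.652 for Irf4). The Irf4 difference was -1.18 in mice 1 to 5 and -0.44 in mice 6 to 10. The other members differed by -0.75 (Slpi) to 0.07 (Mzb1), and the median over the 8 was -0.37 against 0.02 over all genes.

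Prdm1, which encodes Blimp-1, rose during culture in both genotypes. Its level before culture was 0.87, 0.59, 0.86, 0.65 and 0.89 in WT_Pre 6 to 10 and 0.31, 0.60, 0.26, 0.28 and 0.47 in KO_Pre 6 to 10. After culture with nothing added it was 3.19, 1.40, 1.99, 1.73 and 1.97 in WT_Ctrl 6 to 10, and 3.00, 2.90, 2.54, 2.96 and 2.55 in KO_Ctrl 6 to 10. All 10 cultured samples lay above all 10 samples of the same mouse numbers before culture, and WT_Ctrl 6 was the highest of them. WT_Ctrl exceeded WT_Pre by 1.28 (SE 0.24, adjusted p = 0.000185), and KO_Ctrl exceeded KO_Pre by 2.41 (SE 0.24, adjusted p = 7.78e-09). Both calls held in all 24 alternatives, at 0.59 to 1.45 and 1.47 to 2.64, with the lowest values under quantile normalization. The rise was larger in the knockout by 1.13 (SE 0.34, adjusted p = 0.0416). That difference between the rises was lost in 21 of 34 alternatives (0.88 to 1.41 over all 34, adjusted p = 0.000743 to 0.123). Among them were the omission of both arrays before culture numbered 10 (1.12, adjusted p = 0.0692) and of any 1 of 14 single arrays: WT_Pre 6, 8, 9 or 10, WT_Ctrl 7, 8, 9 or 10, KO_Pre 6, 8 or 9, and KO_Ctrl 6, 7 or 9 (0.96 to 1.16, adjusted p = 0.0524 to 0.0873).

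IL-4 moved Prdm1 in opposite directions in the 2 genotypes. In WT_IL4 6 to 10 the level was 3.30, 1.92, 3.08, 2.67 and 2.63, and in KO_IL4 6 to 10 it was 2.35, 1.90, 1.75, 2.11 and 1.80. Mouse by mouse it was higher with IL-4 in 5 of 5 wild-type mice, by 0.115 to 1.09, and lower in 5 of 5 knockout mice, with differences of -0.998 to -0.651. The KO_IL4 range lay wholly below the KO_Ctrl range, whereas the wild-type ranges overlapped. The IL-4 effect was 0.66 for the wild type (SE 0.24, adjusted p = 0.0396) and -0.81 for the knockout (SE 0.24, adjusted p = 0.0325), and the 2 effects differed by -1.47 (SE 0.34, adjusted p = 0.0297). Prdm1 was therefore 0.74 higher in KO_Ctrl than in WT_Ctrl (SE 0.24, adjusted p = 0.0352) and 0.74 lower in KO_IL4 than in WT_IL4 (-0.74, SE 0.24, adjusted p = 0.0313). In order of mean level the groups ran KO_Ctrl (2.79), WT_IL4 (2.72), WT_Ctrl (2.05), KO_IL4 (1.98), WT_Pre (0.74) and KO_Pre (0.54), and the only gap between neighbouring ranges was that between KO_IL4 and WT_Pre.

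These Prdm1 calls lay near the threshold. The difference of the IL-4 effects kept its sign in all 34 alternatives (-1.76 to -1.12) and its call in 24, being lost without any 1 of WT_Ctrl 7, 9 or 10, WT_IL4 8, KO_Ctrl 7 or 9, or KO_IL4 9 or 10 (-1.51 to -1.31, adjusted p = 0.0515 to 0.0622). The wild-type rise with IL-4 was lost in 14 of 24 alternatives (0.50 to 0.95, adjusted p = 0.000768 to 0.175), 8 of them the omission of WT_Ctrl 7, 8, 9 or 10 or WT_IL4 6, 8, 9 or 10 (0.50 to 0.69). The knockout fall was lost in 10 of 24, among them quantile normalization (-0.50, adjusted p = 0.355) and the omission of KO_Ctrl 6, 7 or 9 or KO_IL4 7, 8 or 10 (-0.79 to -0.75). With each mouse as a block the wild-type rise had an adjusted p of 0.00682 and the difference of the effects one of 0.00616. KO_Ctrl against WT_Ctrl lost the call in 12 of 24, among them quantile normalization (0.33, adjusted p = 0.54) and the omission of WT_Ctrl 7, 8, 9 or 10 or KO_Ctrl 6, 7 or 9 (0.57 to 0.72), and without wild-type mouse 6 it was 1.02 (adjusted p = 0.000201). KO_IL4 against WT_IL4 lost it in 10 of 24, among them the omission of WT_IL4 6 or 8 or KO_IL4 7, 8, 9 or 10 (-0.77 to -0.59).

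**Figure D2:**
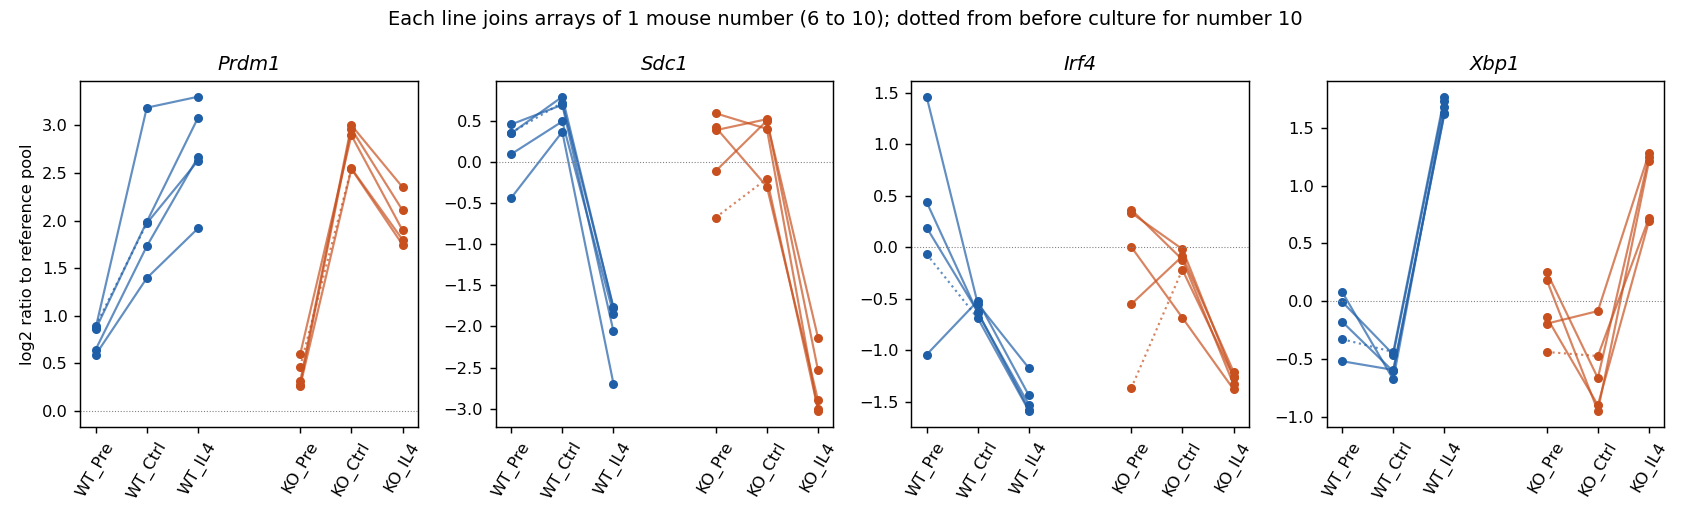
Log2 ratio to the reference pool (vertical axis) of Prdm1, Sdc1, Irf4 and Xbp1 before culture, after culture with nothing and after culture with IL-4 (horizontal axis), where each line joins the arrays of 1 mouse number in 1 genotype and a dotted segment marks number 10. The Prdm1 lines run up from WT_Ctrl to WT_IL4 and down from KO_Ctrl to KO_IL4 in all 5 mice of each genotype, while those of Sdc1 and Irf4 run down and those of Xbp1 up in both genotypes.

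Markers of T and NK cells, some of which also use Blimp-1, differed between the same groups. The mean over 11 measured T cell markers was -0.34 to 1.24 in WT_Ctrl and -0.37 to 1.28 in WT_IL4, against -0.61 to -0.19 in KO_Ctrl and -0.82 to -0.35 in KO_IL4. Array 7 was the lowest of WT_Ctrl and of WT_IL4 in the T cell mean, in the mean over 10 NK cell markers and in Prdm1. The NK cell mean ran from -1.93 to -1.11 in WT_Ctrl and from -0.92 to -0.26 in WT_IL4, and from -1.41 to -0.38 in KO_Ctrl and from -1.30 to 0.06 in KO_IL4. Gzmb, a cytotoxic granule protease, rose by 4.24 with IL-4 in wild-type cells (adjusted p = 2.28e-09), and its IL-4 effect differed between genotypes by -3.64 (adjusted p = 0.000565). It was the 1 of 10 NK cell markers for which that difference passed, beside 0.585% of all genes downward. Between genotypes 2 of the 10 NK cell markers rose and 0 fell in KO_Ctrl (median 0.32), and 1 rose and 1 fell in KO_IL4 (median -0.33). Gzmb was 3.11-fold higher in KO_Ctrl than in WT_Ctrl (adjusted p = 0.00236). With IL-4 it was 4.01-fold lower in KO_IL4 than in WT_IL4 (adjusted p = 0.000693). Prf1, which encodes perforin, was higher in the knockout both without IL-4 (0.53, adjusted p = 0.0206) and with it (0.52, adjusted p = 0.021). Of the 8 erythroid and platelet markers 2 rose in KO_Ctrl against WT_Ctrl, beside 6.87% of all genes. These were the globin gene Hbb-b1, by 2.60 (adjusted p = 0.000141), and the platelet chemokine Pf4, by 1.38 (adjusted p = 0.0204). A larger culture effect in the knockout was called for 2 of the 8 (median over the 8 of 1.16), beside 2.22% of all genes. The mean over these 8 markers was -0.91 to 0.32 in KO_Ctrl and, in WT_Ctrl, was highest in array 6, which also had the highest Prdm1. The part of these cells in the Prdm1 differences was not tested.

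Irf4 and Sdc1 fell with IL-4 in both genotypes. Sdc1 encodes syndecan-1 (CD138), the heparan sulphate proteoglycan used to identify plasma cells. Its level was 0.80, 0.70, 0.49, 0.37 and 0.72 in WT_Ctrl 6 to 10 and -1.78, -2.06, -1.85, -2.69 and -1.76 in WT_IL4 6 to 10. In knockout cells it was 0.52, 0.41, -0.30, 0.50 and -0.20 in KO_Ctrl 6 to 10 and -2.53, -3.03, -2.90, -2.14 and -3.01 in KO_IL4 6 to 10. Every sample with IL-4 lay below every sample without it. The wild-type fall was -2.64 (SE 0.24, adjusted p = 4.68e-09), or 6.25-fold. The knockout fall was -2.91 (SE 0.24, adjusted p = 3.88e-09), or 7.5-fold. Both falls passed in all 24 alternatives, and they differed by -0.26 (95% interval -0.95 to 0.43, adjusted p = 0.744).

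Between genotypes Sdc1 was lower in KO_IL4 than in WT_IL4 by -0.69 (SE 0.24, adjusted p = 0.0429), with overlapping ranges. That call was lost in 13 of 24 alternatives, including quantile normalization (-0.24, adjusted p = 0.685), the omission of wild-type mouse 6 (-0.63, adjusted p = 0.0956) and that of WT_IL4 6, 7, 8 or 10 or KO_IL4 7, 8 or 10 (-0.70 to -0.62). Culture with nothing added left no Sdc1 difference that passed, at 0.45 for the wild type (adjusted p = 0.133) and 0.06 for the knockout (adjusted p = 0.842). The wild-type level was higher after culture in 5 of 5 mice, and the difference passed with median centring (0.59, adjusted p = 0.0459), array weights (0.54, adjusted p = 0.0432) and the background covariate (0.86, adjusted p = 0.0304). The background ratio itself varied with the group. It was -1.74 to 0.68 in WT_Pre, -1.29 to -0.82 in WT_Ctrl and -0.77 to -0.21 in WT_IL4. Here and below, this covariate can therefore add to a group difference or remove part of it.

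The Irf4 level was -0.55, -0.52, -0.64, -0.63 and -0.69 in WT_Ctrl 6 to 10 and -1.18, -1.44, -1.53, -1.58 and -1.59 in WT_IL4 6 to 10. In the knockout it was -0.12, -0.02, -0.68, -0.09 and -0.22 in KO_Ctrl 6 to 10 and -1.33, -1.26, -1.38, -1.21 and -1.26 in KO_IL4 6 to 10. The 10 samples with IL-4 were all below the 10 without it. The IL-4 difference was -0.86 for the wild type (SE 0.30, adjusted p = 0.0364) and -1.06 for the knockout (SE 0.30, adjusted p = 0.0264). The -0.20 between them did not pass (95% interval -1.08 to 0.67). Both within-genotype differences kept their sign in all 24 alternatives, whereas the difference between them ranged from -0.32 to 0.02 over its 34. The wild-type call was lost in 12 of 24, 9 of them the omission of any 1 WT_Ctrl array or of WT_IL4 7, 8, 9 or 10 (-0.88 to -0.83, adjusted p = 0.051 to 0.0671). The knockout call was lost in 7 of 24, among them the omission of KO_Ctrl 7 or 9 or KO_IL4 6, 7 or 8 (-1.07 to -1.01, adjusted p = 0.0509 to 0.067) and quantile normalization (-0.83, adjusted p = 0.591).

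Irf4 also fell in wild-type cells during culture, by 0.80 on the log2 scale (SE 0.30, adjusted p = 0.0366). The 5 WT_Pre samples of mice 6 to 10 were spread from -1.04 to 1.46 and enclosed the whole WT_Ctrl range. That fall was lost in 14 of 24 alternatives, among them the background ratio of the array as a covariate (-0.20, adjusted p = 0.742), the omission of WT_Pre 6 (-0.49, adjusted p = 0.16), of WT_Pre 8 or 9 or of any 1 WT_Ctrl array (-0.82 to -0.74), and that of wild-type mouse 6 (-0.50, adjusted p = 0.193). In knockout cells Irf4 differed by 0.02 over culture (adjusted p = 0.964).

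**Figure D3:**
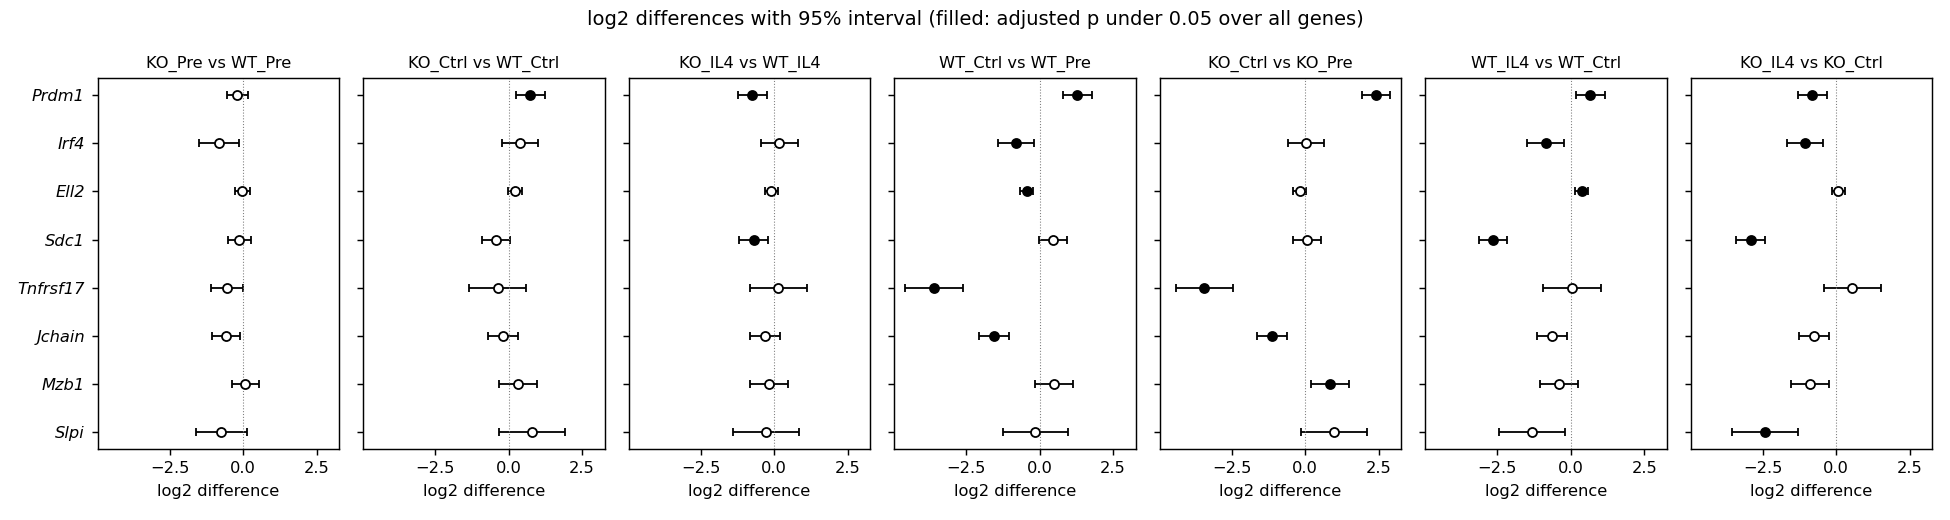
Difference of log2 ratios (horizontal axis) of the 8 genes (vertical axis) in the 7 comparisons of pairs of groups, first group minus second, with 95% intervals, filled where the adjusted p over all genes was under 0.05. Sdc1 lies far left of 0 with IL-4 in both genotypes, Tnfrsf17 far left after culture in both, and Prdm1 right of 0 in WT_IL4 against WT_Ctrl and left of it in KO_IL4 against KO_Ctrl.

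Promoter sequences are shown for Prdm1, whose response to IL-4 differed between genotypes, for Irf4 and Sdc1, which fell with IL-4 in both, and for Tnfrsf17, which fell most in culture. Each run is the 250 bases before 1 start site in RefSeq's table for GRCm38.p6, written 5′ to 3′ on the strand of the gene, with motif matches in capitals. The Prdm1 and Tnfrsf17 windows lie inside the spans given for these genes, chr10:44437174-44528558 and chr16:11313232-11320074. Any other start sites of the members were not searched. The Prdm1 window is chr10:44458749-44458998 on the minus strand, that of Irf4 chr13:30748983-30749232 on the plus strand, that of Sdc1 chr12:8771146-8771395 on the plus strand, and that of Tnfrsf17 chr16:11313559-11313808 on the plus strand.
Prdm1: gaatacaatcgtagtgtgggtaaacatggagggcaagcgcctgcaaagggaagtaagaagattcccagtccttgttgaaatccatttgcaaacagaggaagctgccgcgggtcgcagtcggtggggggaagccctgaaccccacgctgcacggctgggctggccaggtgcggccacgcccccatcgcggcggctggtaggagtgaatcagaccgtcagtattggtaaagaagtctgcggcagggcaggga
Irf4: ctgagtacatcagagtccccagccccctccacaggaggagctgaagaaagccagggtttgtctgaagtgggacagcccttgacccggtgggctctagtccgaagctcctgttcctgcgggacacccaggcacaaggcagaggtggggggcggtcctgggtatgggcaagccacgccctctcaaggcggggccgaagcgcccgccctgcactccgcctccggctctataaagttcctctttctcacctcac
Sdc1: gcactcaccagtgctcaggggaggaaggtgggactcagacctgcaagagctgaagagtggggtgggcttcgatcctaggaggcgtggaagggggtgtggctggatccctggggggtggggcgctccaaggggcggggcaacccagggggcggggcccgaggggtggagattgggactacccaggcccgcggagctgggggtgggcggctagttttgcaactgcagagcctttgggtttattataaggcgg
Tnfrsf17: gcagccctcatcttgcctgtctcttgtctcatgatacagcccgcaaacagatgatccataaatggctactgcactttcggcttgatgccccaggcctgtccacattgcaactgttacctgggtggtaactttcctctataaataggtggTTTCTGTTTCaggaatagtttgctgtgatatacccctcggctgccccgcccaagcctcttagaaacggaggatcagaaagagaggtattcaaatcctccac

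Motifs were searched on both strands in these windows and in those of Jchain, Ell2 and Slpi, which gave 7 members, and in 32851 promoter windows of the same length. Mzb1 was left out of the members searched, so nothing is said here of its promoter. The STAT6 motif, TTC and GAA with 4 bases of any kind between them, was present in 0 of the 7 members and in 5.85% of all windows. The core of the interferon response element, GAAA repeated after 2 bases of any kind, was present in 1 of 7 and in 2.98% of all. That match lay in the Tnfrsf17 window, on the minus strand and 101 bases before the start site used. The ETS-IRF composite, GGAA and GAAA with 2 bases of any kind between them, was present in 0 of 7 and in 2.3% of all. The Blimp-1 core, G, any base and then GAAAGT, was present in 0 of 7 and in 3.53% of all. The composite and the response element share the GAAA unit, so a stretch can hold both. A match here is a run of letters and no match says only that the letters are not in this window.

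Tnfrsf17 and Jchain fell during culture in both genotypes. Tnfrsf17 encodes BCMA, the receptor through which BAFF and APRIL keep plasma cells alive. Its level was 0.56, 0.87, 1.33, 0.66 and 1.70 in WT_Pre 6 to 10 and -3.71, -3.40, -1.45, -2.48 and -1.84 in WT_Ctrl 6 to 10. In the knockout it was 0.22, 0.51, -0.22, 0.73 and 1.17 in KO_Pre 6 to 10 and -3.16, -3.65, -2.93, -2.49 and -2.53 in KO_Ctrl 6 to 10. All cultured samples were below all samples before culture. The wild-type fall was -3.60 (SE 0.47, adjusted p = 2.32e-06), or 12.1-fold, and the knockout fall -3.44 (SE 0.47, adjusted p = 1.61e-06), or 10.8-fold. With IL-4 the level ranged from -3.29 to -0.998 in WT_IL4 (SD 0.93, against 0.97 in WT_Ctrl) and from -3.72 to -1.22 in KO_IL4 (SD 1.06, against 0.48 in KO_Ctrl). The IL-4 differences of 0.04 and 0.55 did not pass (95% intervals -0.94 to 1.01 and -0.42 to 1.53).

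Jchain was 0.43, 0.54, 1.24, 0.52 and 0.90 in WT_Pre 6 to 10 and -1.06, -1.33, -0.22, -1.12 and -0.34 in WT_Ctrl 6 to 10. In the knockout it was 0.31, 0.50, -0.33, 0.10 and 0.07 in KO_Pre 6 to 10 and -1.20, -0.75, -0.56, -1.47 and -0.98 in KO_Ctrl 6 to 10. The ranges before and after culture did not overlap in either genotype, which also held for 22.5% of all genes in wild-type cells and 29.3% in knockout cells. The wild-type fall was -1.54 (SE 0.25, adjusted p = 3.58e-05) and the knockout fall -1.12 (SE 0.25, adjusted p = 0.000551), and these differed by 0.42 (95% interval -0.30 to 1.14). Some markers of other cell types fell in the same comparisons, and others rose. Of 10 NK cell markers 9 fell in wild-type cells (median -2.13) and 7 in knockout cells (median -0.96), and 6 of 11 dendritic cell markers fell in each, among them Clec9a (-4.94, adjusted p = 2.88e-13, and -4.46, adjusted p = 8.43e-13). Over all genes 26.4% fell in wild-type cells and 31.2% in knockout cells. The shares that rose were 13.2% and 19.8%. Of 14 macrophage and monocyte markers 3 rose and 6 fell in wild-type cells (median -0.71). In knockout cells 5 rose and 5 fell (median -0.01). The macrophage complement gene C1qc differed by -4.11 (adjusted p = 6.81e-11) and -3.10 (adjusted p = 3.47e-09), but the macrophage receptor gene Adgre1 rose by 2.60 in knockout cells (adjusted p = 1.22e-10). Of 11 T cell markers 1 rose and 3 fell in wild-type cells, and 3 rose and 4 fell in knockout cells. The part of these cells in the falls of Tnfrsf17 and Jchain was not tested.

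With IL-4 Jchain was -1.97, -1.91, -0.84, -1.73 and -0.76 in WT_IL4 6 to 10 and -1.65, -1.74, -2.09, -1.60 and -1.74 in KO_IL4 6 to 10. It was lower with IL-4 in 5 of 5 mice of each genotype, and only the knockout ranges were apart. Neither the wild-type difference of -0.63 (adjusted p = 0.0621) nor the knockout difference of -0.77 (adjusted p = 0.0526) passed. With each mouse as a block, for which the labels give the pairing, both passed (adjusted p = 0.00798 and 0.0045). Without the block, the wild-type difference passed on omitting WT_Ctrl 7, WT_IL4 8 or WT_IL4 10 (-0.80 to -0.76), and the knockout one on omitting KO_Ctrl 9 (-0.89, adjusted p = 0.0346) or wild-type mouse 6 (-0.77, adjusted p = 0.0499).

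Mzb1, an endoplasmic reticulum protein of marginal zone B and plasma cells that helps IgM assembly, rose during culture in the knockout. It was 0.85, -0.24, 0.19, 1.12 and 0.06 in KO_Pre 6 to 10 and 1.70, 1.95, 0.21 and 0.89 in KO_Ctrl 6 to 9, with 1.5 in KO_Ctrl 10, so the ranges overlapped. The rise was 0.86 (SE 0.31, adjusted p = 0.0251), against 0.49 in wild-type cells (adjusted p = 0.214), and these differed by 0.36 (95% interval -0.55 to 1.27). The call was lost in 11 of 24 alternatives, among them quantile normalization (0.29), the omission of both arrays before culture numbered 10 (0.77, adjusted p = 0.0589) and that of KO_Pre 7, 8 or 10 or KO_Ctrl 6, 7 or 10 (0.68 to 0.81). With IL-4, Mzb1 was 0.67, 0.63, 0.31, -0.19 and 0.28 in KO_IL4 6 to 10. The IL-4 difference was -0.91 in knockout cells (adjusted p = 0.0727), which passed only on omitting KO_Ctrl 8 (-1.17, adjusted p = 0.0143), and -0.42 in wild-type cells (adjusted p = 0.332).

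Ell2, an elongation factor that favours the secreted form of immunoglobulin heavy chain mRNA, had the smallest standard error of the 8 genes after culture. In wild-type cells it was 0.65, 0.18, 0.48, 0.32 and 0.39 in WT_Pre 6 to 10, 0.23, -0.28, 0.10, -0.08 and -0.14 in WT_Ctrl 6 to 10 and 0.50, 0.39, 0.16, 0.27 and 0.38 in WT_IL4 6 to 10. It thus went down in culture and was higher again with IL-4 in 5 of 5 mice. The fall in culture was -0.44 (SE 0.11, adjusted p = 0.00265) and the rise with IL-4 was 0.37 (SE 0.11, adjusted p = 0.0115). Median centring of the arrays ended the former call (-0.30, adjusted p = 0.0591) and quantile normalization the latter (0.33, adjusted p = 0.101). In knockout cells the corresponding differences of -0.18 and 0.06 did not pass, except that the former did with quantile normalization (-0.41, adjusted p = 0.0197). Neither difference between genotypes passed (0.26, 95% interval -0.06 to 0.57, in culture and -0.31, 95% interval -0.63 to 0.00, with IL-4).

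Slpi, a secreted inhibitor of leukocyte serine proteases that neutrophils and macrophages also make, varied widely within groups, most so in WT_Ctrl (SD 1.35). Its level was 2.18, -1.49, -0.20, -0.42 and 0.44 in WT_Ctrl 6 to 10 and -1.06, -1.71, -1.50, -1.37 and -0.50 in WT_IL4 6 to 10. In the knockout it was 0.18, 1.67, 0.81, 0.17 and 1.71 in KO_Ctrl 6 to 10 and -1.54, -0.94, -1.09, -2.67 and -1.29 in KO_IL4 6 to 10. It was lower with IL-4 in 5 of 5 mice of each genotype, and the knockout ranges were apart. The knockout fall was -2.42 (SE 0.55, adjusted p = 0.0048), a call lost in 1 of 24 alternatives (quantile normalization, -1.75, adjusted p = 0.15). The wild-type difference of -1.33 (SE 0.55) did not pass (adjusted p = 0.0702), but did with each mouse as a block (adjusted p = 0.0275), without WT_Ctrl 7 (-1.73, adjusted p = 0.0227) and without the arrays before culture numbered 10 (adjusted p = 0.0294). Without wild-type mouse 6 it was -0.85 (adjusted p = 0.268). Culture without IL-4 gave 0.99 in the knockout (adjusted p = 0.134), which passed at 1.36 without KO_Pre 10 (adjusted p = 0.0391) or without both arrays before culture numbered 10 (adjusted p = 0.0217) and at 1.23 with array weights (adjusted p = 0.00926). With the background covariate it was -0.86 (adjusted p = 0.476), but the background ratio itself ran from -1.32 to 1.08 in KO_Pre and from -1.79 to -0.72 in KO_Ctrl.

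Some macrophage and monocyte markers also fell with IL-4, and no neutrophil marker passed. The mean over 14 macrophage and monocyte markers was -0.38 to 0.06 in WT_Ctrl and -0.38 to 0.06 in KO_Ctrl, against -0.75 to -0.48 in WT_IL4 and -0.74 to -0.41 in KO_IL4. Of these 14, 1 rose and 5 fell with IL-4 in wild-type cells (median -0.06), against 15.5% and 11.4% of all genes. In knockout cells 1 rose and 2 fell (median -0.44), against 4% and 4.39%. Cd14, the monocyte co-receptor for lipopolysaccharide, fell by 1.22 (adjusted p = 0.0139) and by 1.69 (adjusted p = 0.00305), and the scavenger receptor Marco fell by 2.41 (adjusted p = 1.18e-07) and by 1.37 (adjusted p = 0.000862). Adgre1, a macrophage surface receptor gene, rose by 1.12 in knockout cells (adjusted p = 0.000539). The mean over 12 neutrophil markers was -0.42 to 0.14 in WT_Ctrl, -0.49 to -0.01 in KO_Ctrl, -0.57 to -0.13 in WT_IL4 and -0.78 to -0.38 in KO_IL4, and none of the 12 passed with IL-4 in either genotype. Before culture the neutrophil mean reached 3.55 in WT_Pre 4 and 2.49 in KO_Pre 4, where Slpi was 1.73 and 0.60. The highest Slpi values before culture were 2.16 in WT_Pre 3 and 1.98 in KO_Pre 5, where the neutrophil mean was 3.18 and 0.57. In these arrays the macrophage and monocyte mean was 1.19 and 0.92, the highest of WT_Pre and of KO_Pre. The part of these cells in the Slpi values was not tested.

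**Figure D4:**
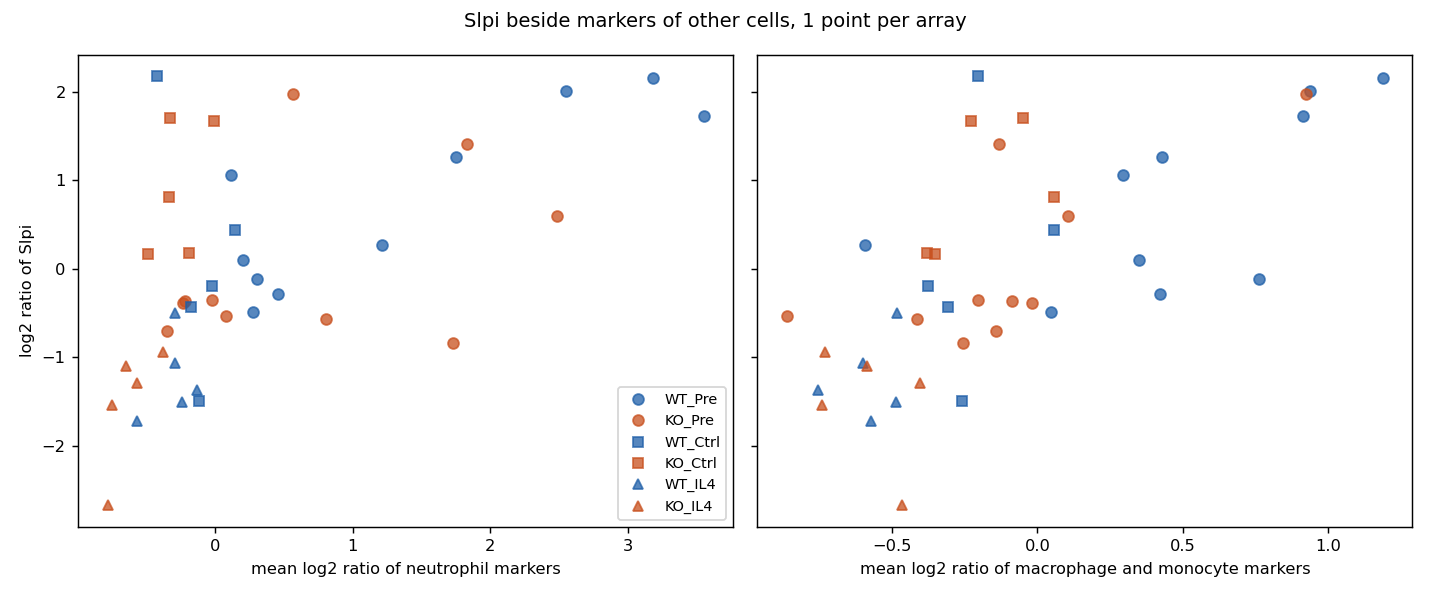
Log2 ratio of Slpi (vertical axis) against the mean log2 ratio of 12 neutrophil markers (left) and of 14 macrophage and monocyte markers (right) in each of the 40 arrays, with blue for wild-type, orange for knockout, circles before culture, squares after culture with nothing and triangles with IL-4. The 10 arrays with IL-4 lie low on both axes of the right panel, at or below -0.41 for the markers and -0.50 for Slpi.

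Read as a group, the 8 genes did not move as one. Between genotypes after culture, 1 rose and 0 fell without IL-4, against 6.87% of all genes upward and 8.43% downward. With IL-4 0 rose and 2 fell, against 8.57% upward and 9.85% downward. With IL-4 in wild-type cells 2 rose and 2 fell, beside 15.5% and 11.4% of all genes, with a median of -0.52 over the 8 and 0.12 over all genes. This count is from the fit without a block. With each mouse as a block Jchain and Slpi passed as well, both downward. With IL-4 in knockout cells 0 rose and 4 fell, beside 4% and 4.39%, with medians of -0.86 and 0.02. With the mouse block Jchain passed in knockout cells too, also downward. Ranges with and without IL-4 were apart for 2 of 8 in wild-type cells and 5 of 8 in knockout cells, against 25.6% and 9.22% of all genes. The IL-4 effect differed between genotypes for 1 of 8, downward, beside 0.608% of all genes upward and 0.585% downward.

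During culture 1 of the 8 rose and 4 fell in wild-type cells, against 13.2% of all genes upward and 26.4% downward. In knockout cells 2 rose and 2 fell, against 19.8% upward and 31.2% downward. The median over all genes was itself -0.15 and -0.12 in these comparisons. Ranges before and after culture were apart for 3 of 8 in each genotype, against 22.5% and 29.3% of all genes. The culture effect differed between genotypes for 1 of 8, upward, beside 2.22% upward and 4.46% downward. Over the 30 arrays of mice 6 to 10 the 28 pairs of members had Pearson correlations from -0.86 (Prdm1 and Tnfrsf17) to 0.79 (Jchain and Tnfrsf17), and 5 pairs were above 0.5. These arrays share mice, groups and the reference pool, so the correlations describe the groups as much as single samples.

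The genes closest in pattern to each member over the same 30 arrays were none of the plasma cell genes listed. They were H2bc18 (r = 0.948), Gabarapl1 (0.938) and Txnrd1 (0.927) for Prdm1, and Ccr7 (0.927), Oser1 (0.897) and Smad7 (0.889) for Irf4. For Sdc1 they were Selenop, S100a10 (both 0.939) and Spata13 (0.937), and for Tnfrsf17 Adgre4 (0.927), Ccnd1 (0.925) and Angpt1 (0.922). Jchain was closest to Gpr65 (0.907), P2ry6 (0.901) and Fndc7 (0.899), and Slpi to Cd14 (0.934), Procr (0.889) and Basp1 (0.778). Mzb1 and Ell2 had weaker neighbours, up to 0.74 for Bbs12 and 0.809 for Kpna1.

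Of 24 other plasma cell genes listed, 23 were measured. With IL-4 6 rose and 3 fell in wild-type cells (median 0.18, over all genes 0.12), against 15.5% and 11.4% of all genes. In knockout cells 4 rose and 2 fell (median 0.04, over all genes 0.02), against 4% and 4.39%. Xbp1, the regulator of the secretory programme, rose in both genotypes while Sdc1 and Irf4 fell. Its level was -0.59, -0.61, -0.46, -0.68 and -0.44 in WT_Ctrl 6 to 10 and 1.62, 1.63, 1.74, 1.68 and 1.77 in WT_IL4 6 to 10. In the knockout it was -0.67, -0.95, -0.09, -0.90 and -0.47 in KO_Ctrl 6 to 10 and 1.25, 1.21, 1.28, 0.69 and 0.72 in KO_IL4 6 to 10. All samples with IL-4 were above all without it, and all KO_IL4 samples were below all WT_IL4 samples. The wild-type rise was 2.24 (SE 0.16, adjusted p = 6.13e-11) and the knockout rise 1.65 (SE 0.16, adjusted p = 4.03e-08), and the -0.60 between them did not pass (adjusted p = 0.174).

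Derl3, a component of endoplasmic reticulum degradation, was the 1 gene of this list whose IL-4 effect differed between genotypes, downward, beside 0.585% of all genes. It was -1.22, -0.41, -0.60, -1.10 and -0.45 in WT_Ctrl 6 to 10 and -0.53, 0.60, 0.35, -0.15 and 0.23 in WT_IL4 6 to 10. In the knockout it was -0.97, -0.98, -1.39, -1.32 and -1.39 in KO_Ctrl 6 to 10 and -1.56, -1.73, -1.63, -2.08 and -2.03 in KO_IL4 6 to 10. It was higher with IL-4 in each wild-type mouse and lower in each knockout mouse, as Prdm1 was, although the knockout difference of -0.60 did not pass (adjusted p = 0.0776). The effects differed by -1.45 (SE 0.30, adjusted p = 0.0147), and Derl3 was 1.91 lower in KO_IL4 than in WT_IL4 (-1.91, SE 0.21, adjusted p = 4.77e-06).

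Between genotypes 1 of these 23 genes rose and 6 fell in KO_Ctrl (median -0.23, over all genes 0.05), and 2 rose and 7 fell in KO_IL4 (median -0.19, over all genes -0.08). The shares of all genes were 6.87% upward and 8.43% downward in KO_Ctrl, and 8.57% upward and 9.85% downward in KO_IL4. Cd28, a T cell costimulatory receptor that plasma cells also carry, was 2.03 higher in KO_Ctrl (SE 0.38, adjusted p = 0.000383) and 2.20 higher in KO_IL4 (SE 0.38, adjusted p = 0.000399). Of the 11 T cell markers 0 rose and 2 fell in KO_Ctrl, and 0 rose and 6 fell in KO_IL4 (median -1.15). Txndc5, a disulfide isomerase of the endoplasmic reticulum, was lower in KO_Ctrl by -0.94 (SE 0.16, adjusted p = 0.00013), and Il5ra, the IL-5 receptor subunit, by -0.53 (SE 0.17, adjusted p = 0.0303). Before culture 0 of 23 passed. During culture 4 rose and 10 fell in wild-type cells (median -0.37), against 13.2% and 26.4% of all genes. In knockout cells 4 rose and 13 fell (median -0.55), against 19.8% and 31.2%. The falls included the disulfide isomerase Pdia4 (-1.52 in wild-type, adjusted p = 4.71e-08) and the secretory pathway regulator Creb3l2 (-1.24 in wild-type, adjusted p = 2.09e-07). Igkc, the kappa constant region and the only immunoglobulin constant gene measured of 12 listed, was lower by -0.75 in KO_Ctrl (SE 0.18, adjusted p = 0.00546) and by -0.87 in KO_IL4 (SE 0.18, adjusted p = 0.00212).

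Of 14 transcriptional regulators listed for the B cell state, 1 rose and 5 fell with IL-4 in wild-type cells (median -0.30), against 15.5% and 11.4% of all genes. In knockout cells 1 rose and 3 fell (median 0.02), against 4% and 4.39%. Bcl6, a repressor of Prdm1, rose by 0.72 in the wild type (SE 0.14, adjusted p = 0.000537) and by 1.21 in the knockout (SE 0.14, adjusted p = 1.49e-06). Bach2, another repressor of Prdm1, went the other way, with -0.70 (SE 0.13, adjusted p = 0.000151) and -0.63 (SE 0.13, adjusted p = 0.00155). Between genotypes without IL-4, 0 rose and 6 fell in the knockout (median -0.36), among them Spib, an Ets family factor that opposes plasma cell differentiation (-1.05, SE 0.19, adjusted p = 0.000322), Klf2 (-0.94, SE 0.27, adjusted p = 0.0182) and Id3 (-0.62, SE 0.16, adjusted p = 0.00715). With IL-4 1 of 14 fell between genotypes (Ets1, -0.43, SE 0.13, adjusted p = 0.0257) and 0 rose. The shares of all genes were 6.87% upward and 8.43% downward without IL-4, and 8.57% upward and 9.85% downward with it. In culture 1 rose and 4 fell in wild-type cells, against 13.2% and 26.4% of all genes, and 1 rose and 9 fell in knockout cells, against 19.8% and 31.2%, with Spib at -2.03 (SE 0.19, adjusted p = 3.55e-09) and Klf2 at -2.03 (SE 0.27, adjusted p = 1e-06) in the latter.

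B cell markers were lower in KO_Ctrl than in WT_Ctrl. Of 9 measured, 0 rose and 7 fell in KO_Ctrl against WT_Ctrl (median -0.62), beside 6.87% and 8.43% of all genes. Among them were Ms4a1, which encodes CD20 (-1.34, SE 0.26, adjusted p = 0.000574), and the receptor subunits Cd79b (-0.83, SE 0.13, adjusted p = 6.74e-05) and Cd79a (-0.80, SE 0.13, adjusted p = 0.000119). The mean over the 9 was -0.95 to -0.22 in WT_Ctrl and -1.39 to -0.99 in KO_Ctrl, so the ranges did not overlap. With IL-4 it was -1.29 to -0.997 in WT_IL4 and -1.43 to -1.20 in KO_IL4. Since all values are ratios to a B cell pool, they give how these markers changed and not how pure the B cells were. Dendritic cell markers (11 genes) had means of -0.24 to 0.47 before culture, -1.26 to -0.97 in WT_Ctrl and KO_Ctrl, and -1.22 to -0.85 in WT_IL4 and KO_IL4.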

How the data were processed

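The deposited table holds 1 log2 ratio per probe and array, test (Cy5) over reference pool (Cy3), from scans read with Agilent Feature Extraction 11.0.1.1, per the submitters' processing notes. How the authors normalized within arrays, which filters they used and the slides: not given in the sources used here. Spike-in probes of the kit lay 1.42 to 1.56 apart on every array, in keeping with log2 units. Of 39485 probes, 56 were controls, 8804 had no symbol and 30625 had 1. Probes of a gene were averaged (21892 genes, 0 missing values). Genes were tested with limma 3.58.1 (R 4.3.3; lmFit, eBayes, Benjamini-Hochberg, adjusted p under 0.05), in 20 arrays for KO_Pre vs WT_Pre and 30 arrays for the other 8 comparisons. The code was tested on simulated data. Arrays have no depth, so their number limits the precision.

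The members, the gene lists and the rule for named genes (all members, Dock10, at most 3 called genes of each list and comparison by size of difference, and the nearest genes by correlation) were chosen with earlier results of these data known. Levels of Xist and Eif2s3y were read as a check of the labels. Derl3, Xbp1 and other named genes come from these lists. The labels pair the cells of 1 mouse before and after culture. Residuals of WT_Ctrl and WT_IL4 arrays of 1 mouse correlated by 0.171 to 0.295, and those of KO_Ctrl and KO_IL4 by -0.281 to 0.276. Between genotypes the correlation for equal numbers was 0.225 to 0.543 before culture, -0.171 to 0.169 for the Ctrl groups and 0.0911 to 0.299 for the IL4 groups, and only the first was treated as pairing.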

Additional observations from a re-analysis of the deposited data

Results flagged for a closer look

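Of 48 combinations of gene and group, 3 held an array far from the others of its group, and chance alone gives about 1 in 20. Prdm1 was 1.47 in KO_Pre 2, where the other 9 arrays reached 0.64. Jchain was -2.09 in KO_IL4 8 and at least -1.74 in the other 4 arrays, although the differences to them were small because this group was narrow. Mzb1 was 0.0340 in WT_Ctrl 9 and 0.99 to 1.34 in the other 4.

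In 2 results of Prdm1 the effect differed between genotypes by a test of the difference itself. The IL-4 effect was lower in the knockout by -1.47 and the culture effect higher by 1.13. KO_Ctrl enters both with opposite sign, so they are not independent.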

How the results depend on the processing

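The number of the 8 genes called moved by over 1.5 times as follows. For the IL-4 effect compared between genotypes (1 called) it was 0 with quantile normalization and with only the compared groups, and 0 to 1 on leaving out single arrays. For the difference of the culture effects (1) it was 0 with median centring, quantile normalization, the filter on SD, the trend and robust setting, all 40 arrays, only the compared groups and no arrays before culture numbered 10, and 0 to 1 without single arrays. For KO_Ctrl against WT_Ctrl (1) it was 0 with quantile normalization, the filter on SD, a 2-fold minimum, all 40 arrays and only the compared groups, and 0 to 1 without single arrays. For KO_IL4 against WT_IL4 (2) it was 1 with quantile normalization, the filter on SD, all 40 arrays and without wild-type mouse 6, 0 with a 2-fold minimum, only the compared groups and the background covariate, and 0 to 2 without single arrays. For IL-4 in wild-type cells (4) it was 2 with quantile normalization, the filter on SD and all 40 arrays, 1 with a 2-fold minimum, and 2 to 4 without single arrays. For IL-4 in knockout cells (4) it was 1 with quantile normalization and 2 with all 40 arrays, and 2 to 5 without single arrays. For culture in wild-type cells (5) it was 3 with a 2-fold minimum. The culture falls of Tnfrsf17 and Jchain, the rises of Prdm1 in culture and the falls of Sdc1 with IL-4 kept their calls wherever they were run, as did 0 of 8 before culture, and no called value changed sign. The filter on SD left out Ell2. The cause of these changes was not tested.

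With the replicate block (the mouse within a genotype, the number between genotypes) Jchain and Slpi gained the IL-4 calls given above (Jchain, adjusted p = 0.00798 and 0.0045; Slpi in wild-type cells, 0.0275), and the block changed no other call of the 8 genes.

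Genes called over all 21892 ranged between settings from 634 to 4466 for KO_Ctrl against WT_Ctrl (3350 as reported), 1180 to 5707 for KO_IL4 against WT_IL4 (4032), 1390 to 7985 for IL-4 in wild-type cells (5899), 333 to 2557 for IL-4 in knockout cells (1838), 123 to 1548 for the IL-4 effect between genotypes (261), 2966 to 11110 and 4484 to 13243 for culture in wild-type and knockout cells (8654 and 11155), and 365 to 3387 for the difference of the culture effects (1462). Leaving out 1 array gave 97 to 1309 for the IL-4 effect between genotypes. Before culture the count was 0 in each.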
